A study of Mus musculus with 20 samples.

Results

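The NMDA receptor subunits are the 7 genes that encode the N-methyl-D-aspartate class of ionotropic glutamate receptor, namely Grin1, Grin2a, Grin2b, Grin2c, Grin2d, Grin3a and Grin3b. They were chosen by name, as every array probe whose RefSeq accession belongs to one of these genes. The rule found 11 probes for the 7 genes, of 27656 probes with a gene symbol, 20972 gene symbols and 55681 probes on the array. Grin1, Grin2a, Grin2b and Grin3a had a brighter and a dimmer probe each, and the other genes had 1 probe each. All 7 genes passed the limit on low signal, Grin2d only through the Tat+/Sal group, and 15102 genes were tested in all.

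Brain RNA of male mice on a C57BL/6J background was measured on 20 one-colour arrays, 5 for each of 4 groups. Every mouse received doxycycline at 100 mg/kg by intraperitoneal injection for 7 days, controls included. Tat+ mice carried a doxycycline-inducible transgene for the HIV protein Tat (TRE-Tat86) together with a Tet-binding protein driven by the GFAP promoter, so that Tat is made by astrocytes, and Tat- mice carried only the GFAP-driven Tet-binding protein. Each genotype received saline (0.9%) or methamphetamine at 2 mg/kg for 7 days, which gives the Tat-/Sal and Tat-/Meth groups without Tat, and Tat+/Sal and Tat+/Meth with it. Per the labels, the left hemisphere was taken from perfused mice aged 6 to 7 weeks, 24 hours after the last injection. The study's methods instead give the caudate putamen and an older age, and state that all animals, saline groups included, received a single lower dose of methamphetamine after a week of abstinence and before harvest. The groups would then differ in drug history and not in the last injection. Tat itself was not analysed here. The comparisons ask what methamphetamine, Tat and the pair together did to transcript levels in the brain.

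An NMDA receptor is a tetramer that opens only when glutamate and a co-agonist, glycine or D-serine, are bound while the membrane is depolarised, and it then lets calcium into the neuron. GluN1, encoded by Grin1, is the obligatory subunit and binds the co-agonist. GluN2A to GluN2D, encoded by Grin2a to Grin2d, bind glutamate and set the kinetics and magnesium block of the channel, and GluN3A and GluN3B, encoded by Grin3a and Grin3b, bind glycine and lower calcium entry. In the striatum, cortical glutamate input reaches medium spiny neurons through these receptors, where it meets dopamine, the transmitter that methamphetamine releases.

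Values are log2 signals scaled so that every array has the same 75th percentile. A gene is said to have risen, fallen or passed the test where its adjusted p (limma, Benjamini-Hochberg over all 15102 genes) was under 0.05. Counts of arrays above or below all arrays of another group are descriptions. The share of all genes that separated in the same way was not counted, so these counts have no background beside them. Slide and group were not balanced. All 5 Tat-/Meth arrays, and no others, lay on slide 1. Slide 2 held the 5 Tat-/Sal arrays with Tat+/Meth replicates 1 to 3, and slide 3 held Tat+/Meth replicates 4 and 5 with the 5 Tat+/Sal arrays. The bright-corner control spots ran from 14.66 to 15.06 on slide 1 and, on slides 2 and 3, from 16.80 to 17.42, so every difference between Tat-/Meth and another group cannot be told apart from a difference between slides. Between 55.3 and 70.9% of an array's probes were well above background. All 9 markers of striatal medium spiny neurons were well above background on all 20 arrays, with a summed log2 signal of 19.89 to 20.26. Of the 4 cortical excitatory markers, 1 was well above background on all arrays (summed signal 7.96 to 11.02), and of the 4 cerebellar granule cell markers Cbln1 was well above background on all arrays while Gabra6, Neurod1 and Cbln3 were on none (summed signal 6.53 to 7.87). The tissue thus carried striatal transcripts throughout. In bulk tissue, fewer cells of a type and less RNA per cell cannot be told apart.

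Grin1 encodes the subunit that every NMDA receptor contains. Its brighter probe read 12.06, 12.23, 12.58, 12.26 and 12.58 in the 5 Tat-/Sal arrays and 12.74, 12.81, 12.75, 12.82 and 12.65 in the 5 Tat-/Meth arrays. It read 12.82, 12.60, 12.76, 12.68 and 12.94 in Tat+/Sal and 12.53, 12.63, 12.63, 12.39 and 12.72 in Tat+/Meth. All Tat-/Meth and all Tat+/Sal arrays lay above all Tat-/Sal arrays, while Tat+/Meth overlapped with each of the other groups. The group means were 12.34 ± 0.23 (SD, n = 5) in Tat-/Sal, 12.58 ± 0.13 in Tat+/Meth, 12.75 ± 0.07 in Tat-/Meth and 12.76 ± 0.13 in Tat+/Sal. In this order, Tat-/Sal and Tat+/Meth did not differ past the test, nor did Tat+/Meth and Tat-/Meth, and the means of Tat-/Meth and Tat+/Sal lay closer together than the spread of either. The dimmer Grin1 probe gave another order, with 9.12 in Tat-/Sal, 8.99 in Tat-/Meth, 9.37 ± 0.31 in Tat+/Sal and 9.17 in Tat+/Meth. The probes of Grin1 therefore differed in what they showed for methamphetamine, and their deviations from the group means correlated at r = 0.47 over the 20 arrays, given as a description.

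Promoter windows from RefSeq (GRCm38.p6, 250 bases before the start of transcription) were at hand for 4 of the 7 genes, Grin1, Grin2c, Grin2d and Grin3b. Those of Grin1 and Grin2d are shown because these are the subunits among the 4 whose level passed the test in a comparison. They were searched on both strands for 4 motifs, and matches are in capitals. The GC box was searched as GGGCGG. The E-box, bound by basic helix-loop-helix factors, was searched as CACGTG. The cyclic AMP response element was searched as TGACGTCA. The TATA box was searched as TATAAA.
Grin1, chr2:25319188-25319437, minus strand: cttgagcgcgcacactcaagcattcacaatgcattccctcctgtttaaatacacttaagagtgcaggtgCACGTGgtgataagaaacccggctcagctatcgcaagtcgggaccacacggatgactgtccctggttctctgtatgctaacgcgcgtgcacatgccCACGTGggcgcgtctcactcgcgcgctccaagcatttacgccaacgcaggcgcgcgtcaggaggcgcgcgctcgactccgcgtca
Grin2d, chr7:45866682-45866931, minus strand: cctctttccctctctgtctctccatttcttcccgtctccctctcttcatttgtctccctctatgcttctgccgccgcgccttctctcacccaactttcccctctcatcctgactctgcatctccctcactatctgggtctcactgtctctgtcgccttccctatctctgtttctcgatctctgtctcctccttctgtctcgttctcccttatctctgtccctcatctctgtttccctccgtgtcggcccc
The Grin1 window holds 2 matches to CACGTG, a motif present in 6.02% of 32851 windows of the same length, with 27 CpG dinucleotides where the median window has 6, and 58.8% G and C. The Grin2d window holds none of the 4 motifs, 9 CpG and 54.4% G and C. Of the windows not shown, that of Grin2c has 3 partly overlapping GGGCGG matches (a motif in 32.7% of windows) with 15 CpG, and that of Grin3b has 1 TATAAA match (in 12.4% of windows) with 2 CpG. The motif TGACGTCA, present in 1.55% of windows, was in none of the 4. A match is a description of the letters and not evidence of a bound site.

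Grin2a and Grin2b encode the GluN2 subunits that predominate in the adult forebrain. The brighter Grin2b probe read 11.58, 11.95, 12.02, 11.95 and 12.29 in Tat-/Sal and 12.28, 12.30, 12.39, 12.35 and 12.34 in Tat-/Meth. In Tat+/Sal it read 12.08, 11.90, 12.54, 11.83 and 11.87, and in Tat+/Meth 12.13, 12.08, 12.25, 11.69 and 12.21. The Tat-/Meth arrays were the highest group but for replicate 5 of Tat-/Sal, which lay above 1 of them, and replicate 3 of Tat+/Sal, which lay above all of them, and they were the tightest, with an SD of 0.05 against 0.22 to 0.29 in the other groups. The brighter Grin2a probe averaged 9.75 ± 0.17 in Tat-/Sal, 9.86 ± 0.13 in Tat-/Meth, 9.61 ± 0.64 in Tat+/Sal and 9.69 ± 0.23 in Tat+/Meth. Its spread in Tat+/Sal came from replicate 3 at 10.45 and replicate 4 at 8.79, with the other arrays at 9.20 to 9.81, and all 4 groups overlapped. The Tat+/Meth arrays of Grin2a split by slide, at 9.83 to 9.89 on slide 2 and 9.41 to 9.47 on slide 3. The dimmer probes of both genes showed the same wide Tat+/Sal spread, with an SD of 0.74 for Grin2a and 0.78 for Grin2b. For Grin2b that probe ran from 9.95 in replicate 4 to 12.09 in replicate 3.

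Grin2c and Grin2d encode GluN2C, known best from cerebellar granule cells and astrocytes, and GluN2D, known from interneurons and deep nuclei. Grin2c hardly varied, with means of 13.32 ± 0.14 in Tat-/Sal, 13.45 ± 0.13 in Tat-/Meth, 13.29 ± 0.09 in Tat+/Sal and 13.31 ± 0.12 in Tat+/Meth. Its arrays ran from 13.10 to 13.56 and all groups overlapped. Of the Tat-/Meth arrays, 4 lay above all Tat-/Sal arrays, of which the highest read 13.47, and replicate 2 of Tat-/Meth read 13.22. Grin2d lay near the limit of detection, well above background on 16 of the 20 arrays. It read 6.01, 5.84, 6.19, 5.82 and 5.65 in Tat-/Sal and 5.18, 5.32, 5.32, 5.61 and 5.97 in Tat-/Meth. It read 5.85, 6.25, 5.74, 6.16 and 6.21 in Tat+/Sal and 5.52, 5.54, 5.69, 6.17 and 6.05 in Tat+/Meth. Of the Tat-/Meth arrays, 4 lay below all Tat-/Sal arrays, and replicates 2 and 5 of Tat-/Meth were not well above background. The Tat+/Meth arrays of Grin2d also split by slide, at 5.52 to 5.69 on slide 2 and 6.05 to 6.17 on slide 3, so that on slide 3 they lay among the Tat+/Sal arrays.

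Grin3a and Grin3b encode the glycine-binding GluN3 subunits, of which GluN3A is known from the young brain and GluN3B from motor neurons. The brighter Grin3a probe read 9.09, 9.24, 9.41, 9.52 and 9.56 in Tat-/Sal and 9.78, 9.51, 9.54, 9.65 and 9.59 in Tat-/Meth. The means were 9.29 ± 0.16 in Tat+/Sal and 9.35 ± 0.17 in Tat+/Meth, against 9.61 ± 0.11 in Tat-/Meth and 9.36 ± 0.20 in Tat-/Sal. Only the Tat-/Meth group stood somewhat apart, with 3 of its arrays above all Tat-/Sal arrays. The dimmer Grin3a probe read 6.07, 5.98, 6.17, 6.07 and 5.93 in Tat-/Sal and 6.71, 6.68, 6.37, 6.65 and 7.96 in Tat-/Meth, with no overlap. Grin3b averaged 8.01 ± 0.42 in Tat-/Sal, 7.85 ± 0.48 in Tat-/Meth, 7.84 ± 0.17 in Tat+/Sal and 7.79 ± 0.27 in Tat+/Meth, and its groups overlapped throughout.

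**Figure D1:**
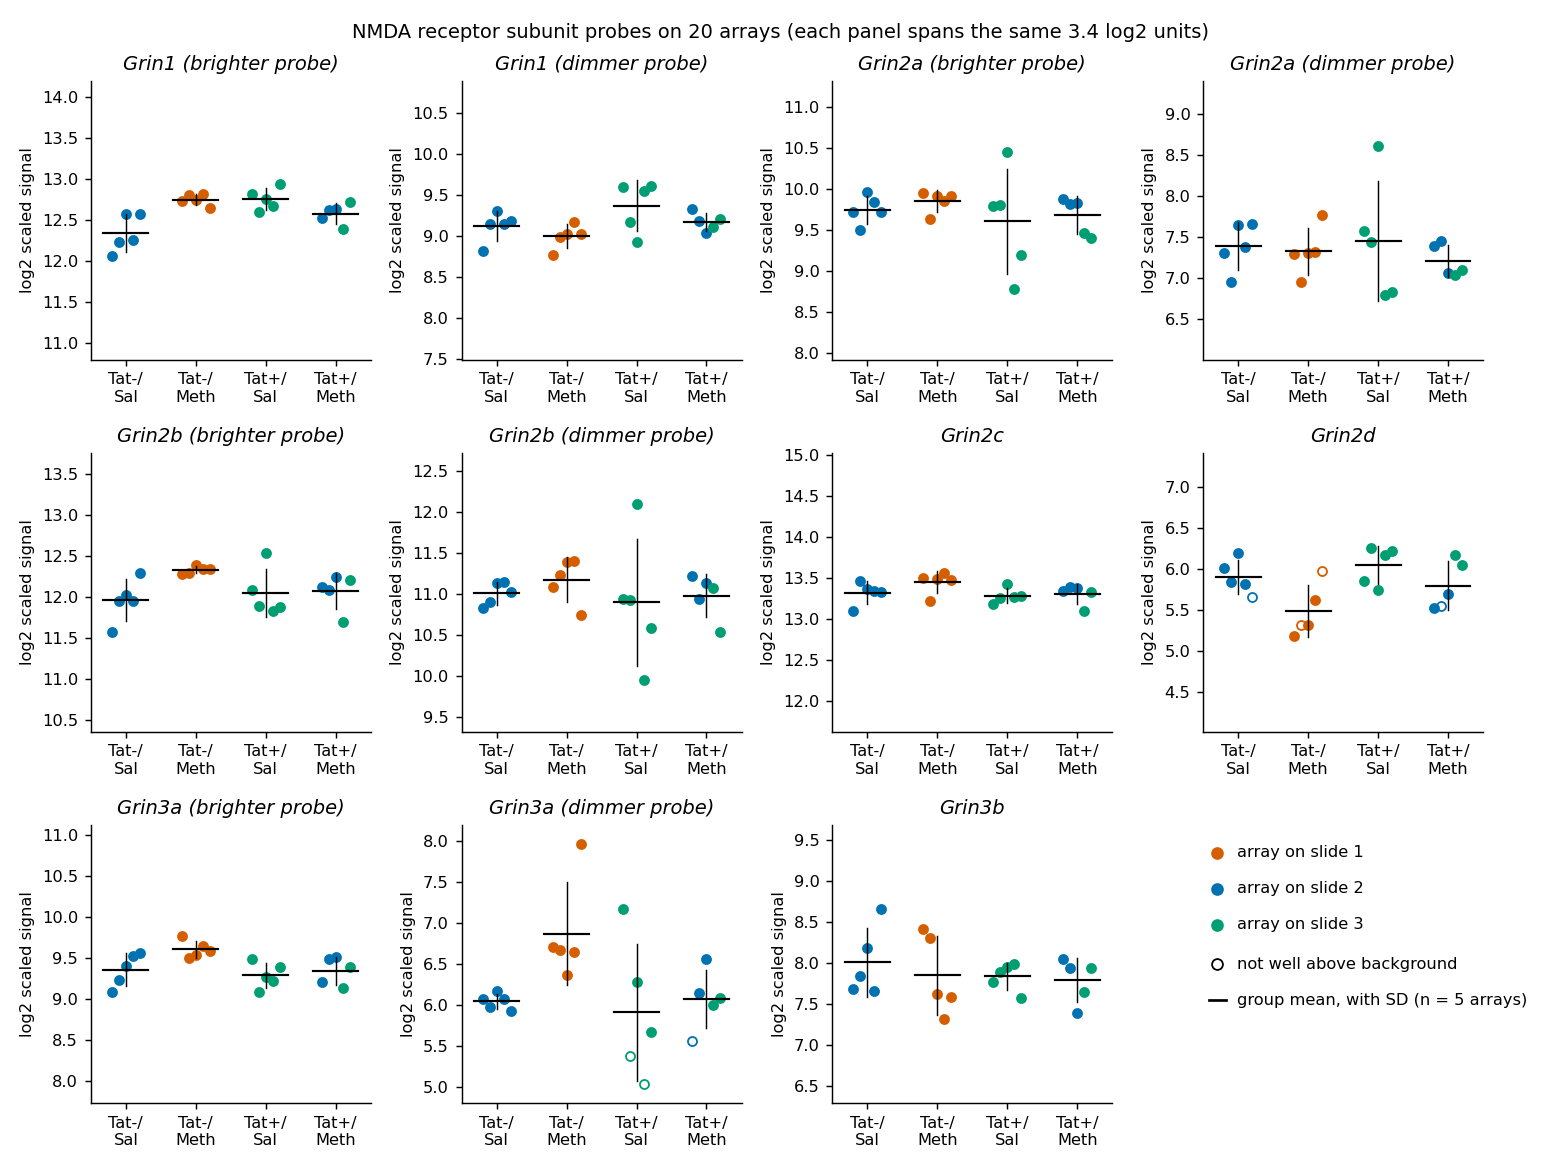
Log2 scaled signal (vertical axis) of the 11 probes of the 7 NMDA receptor subunit genes on each of the 20 arrays, 1 panel per probe, by group. Points are arrays coloured by slide, open where not well above background, with the group mean as a bar and its SD as a line (n = 5). The brighter Grin1 probe lies above all Tat-/Sal arrays in every Tat-/Meth and Tat+/Sal array, and the brighter Grin2a probe is spread most in Tat+/Sal, from 8.79 to 10.45.

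The Tat-/Meth vs Tat-/Sal comparison asks for the effect of methamphetamine without Tat. Of the 7 subunits, Grin1, Grin2b and Grin3a were higher and Grin2d was lower in Tat-/Meth past the test, and Grin2a, Grin2c and Grin3b did not pass. Over all genes, 7588 of 15102 (50.2%) passed in this comparison, 35% higher and 15.3% lower, so 4 of 7 is near the background. None of the 7 differed by 2-fold or more, a limit that 6.85% of all genes passed together with the test. The median subunit difference was 0.13 and that of all genes 0.14 on the log2 scale.

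Grin1 was higher in Tat-/Meth by 0.41 (SE 0.09, 95% interval 0.21 to 0.61, adjusted p = 0.00148), with 5 of 5 arrays above all Tat-/Sal arrays, but by -0.01 without scaling of the arrays. Its dimmer probe differed by -0.13 (adjusted p = 0.412 over all 19799 probes tested, of which 48.5% passed). Grin2b was higher by 0.37 (SE 0.14, adjusted p = 0.0294, 4 of 5 arrays above all controls), -0.05 without scaling, and its dimmer probe by 0.16 (adjusted p = 0.622). Leaving out replicate 1 of Tat-/Sal, the lowest Grin2b value on the 20 arrays, took Grin2b to 0.28 (adjusted p = 0.0915), and leaving out replicate 3 of Tat-/Meth also ended the call (adjusted p = 0.056). Grin3a was higher by 0.25 (SE 0.10, adjusted p = 0.0466), -0.17 without scaling, and this call ended in 11 of the 20 fits that left out 1 array. Its dimmer probe was higher by 0.83 (SE 0.33, adjusted p = 0.0447), with 5 of 5 arrays above all Tat-/Sal arrays. Both Grin3a probes therefore pointed the same way, and both passed only narrowly.

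Grin2d was lower by 0.42 (SE 0.16, adjusted p = 0.0356), with 4 of 5 arrays below all Tat-/Sal arrays and a mean log2 signal under the limit of 6 in both groups. Its call was lost without any 1 of Tat-/Meth replicates 1, 2 and 3 or Tat-/Sal replicates 1 and 3. It was also lost with quantile normalization (-0.51), median scaling (-0.30), normexp background correction (-0.19, adjusted p = 0.196), the values of the deposited table (-0.24, adjusted p = 0.172) and no filter. The subunits that did not pass differed by 0.13 for Grin2c (95% interval -0.04 to 0.29, adjusted p = 0.192), -0.16 for Grin3b (adjusted p = 0.551) and 0.10 for Grin2a (95% interval -0.34 to 0.55, adjusted p = 0.701). The interval of Grin2c, which holds for this scaling only, was narrow, and that of Grin2a was wide.

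The scaling set the zero of this comparison. The median difference of all genes moved from 0.14 to 0.26 when arrays were scaled to their median and to -0.29 without scaling. Without scaling no subunit was higher past the test, and Grin2d, Grin2c (-0.30, adjusted p = 0.00921) and Grin3b (-0.58, adjusted p = 0.0206) were lower. The 75th percentile, the median and no scaling move all genes of an array alike, so they cannot change a difference relative to the median of all genes, while quantile normalization can. Relative to that median, Grin1 lay 0.27 higher as reported and 0.21 higher after quantile normalization, Grin2d lay at -0.56 and -0.66, Grin2b lay 0.23 and 0.18 higher, and Grin3a lay 0.11 higher under both. Genes of a mean level between 12 and 13, the range of the brighter Grin1 and Grin2b probes, had a median difference of 0.18, with 56.1% of 1850 past the test. Other values moved with this comparison. The summed signal of 3 pan-neuronal markers was 17.46 to 17.67 in Tat-/Meth and 17.79 to 18.13 in the other groups, in which Snap25 moved (mean 17.12 in Tat-/Sal and 16.38 in Tat-/Meth) and Rbfox3 (15.75 and 15.82) and Syt1 (15.82 and 15.74) hardly did. The sum of 5 astrocyte markers was 15.62 to 15.91 in Tat-/Meth and 15.34 to 15.65 in the other groups. That of 4 interneuron markers was 15.89 to 16.17 in Tat-/Meth, 15.62 to 15.83 in Tat-/Sal, 15.87 to 16.12 in Tat+/Sal and 15.72 to 16.07 in Tat+/Meth. The mean of their log2 values overlapped, at 11.59 to 11.98 in Tat-/Meth and 11.70 to 11.95 in Tat-/Sal. Sst (mean 15.36 in Tat-/Sal and 15.70 in Tat-/Meth) and Pvalb (12.04 and 12.28) were higher, Npy hardly moved (13.17 in both) and Vip was lower (6.83 and 6.09). These marker values hold for this scaling. Without scaling every difference of this comparison was 0.42 lower, which exceeds the rises of Sst, Pvalb and each astrocyte marker. The part of these markers in the subunit differences was not tested.

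**Figure D2:**
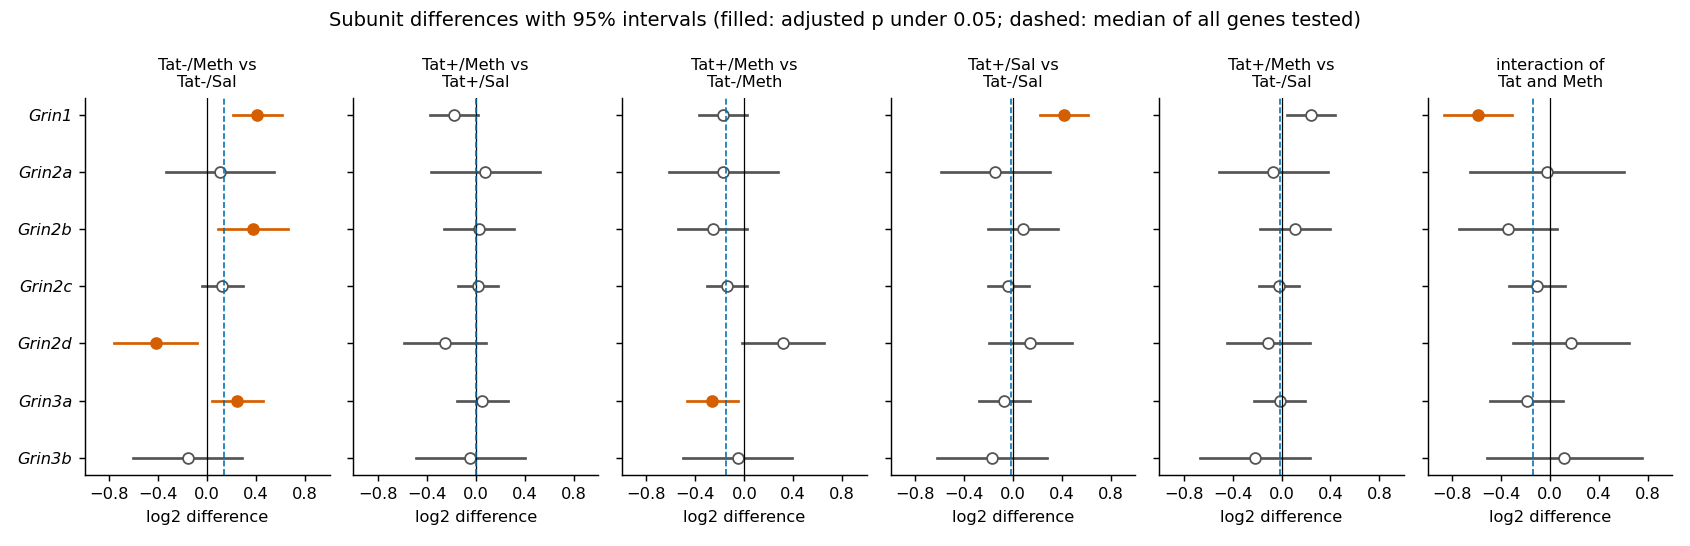
Log2 differences (horizontal axis) with 95% intervals for the brighter or single probe of each subunit gene, 1 panel per comparison, filled where the adjusted p is under 0.05, with the median of all genes tested dashed. Grin1 differs by 0.41 in Tat-/Meth vs Tat-/Sal, 0.42 in Tat+/Sal vs Tat-/Sal and -0.59 in the interaction (-0.01, 0.27 and -0.10 without scaling), and the intervals of Grin2a, Grin2c and Grin3b include 0 in every panel.

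The Tat+/Sal vs Tat-/Sal comparison asks for the effect of Tat without methamphetamine, and neither group lay on slide 1. Grin1 was higher in Tat+/Sal by 0.42 (SE 0.09, 95% interval 0.22 to 0.61, adjusted p = 0.0386), with 5 of 5 arrays above all Tat-/Sal arrays, and it was the 1 subunit of 7 past the test where 1.42% of all genes (214) passed, 0.768% higher and 0.649% lower. None of the 7 differed by 2-fold, as 0.0199% of all genes did past the test. Its dimmer probe was higher by 0.25 without passing (adjusted p = 0.272 over all probes, of which 1.31% passed), with 3 of 5 arrays above all controls. The brighter probe differed by 0.27 without scaling (adjusted p = 0.112), 0.49 with median scaling and, for the mean of both probes, 0.33 (adjusted p = 0.0838), none of them past the test. Relative to the median of all genes it lay 0.43 higher as reported and 0.42 higher after quantile normalization. The other subunits differed by -0.17 to 0.14. Each of these groups lay on a slide of its own, apart from Tat+/Meth arrays on both. With slide as a fixed block the Grin1 difference was 0.46 (adjusted p = 0.891, with no gene past the test), and the call also ended in 9 of the 20 fits that left out 1 array. Those arrays were Tat-/Sal replicates 1, 2 and 4, Tat+/Sal replicates 3, 4 and 5, Tat-/Meth replicates 3 and 4 and Tat+/Meth replicate 2. Leaving out 1 array took the count of all genes past the test from 214 to between 0, when replicate 1 of Tat-/Sal was dropped, and 547, when replicate 3 of that group was. The summed signal of the 4 interneuron markers also differed here, at 15.62 to 15.83 in Tat-/Sal and 15.87 to 16.12 in Tat+/Sal. The mean of their log2 values overlapped, at 11.70 to 11.95 and 11.50 to 12.24. Sst, the brightest (mean 15.36 and 15.54), Pvalb (12.04 and 12.18) and Npy (13.17 and 13.51) were higher in Tat+/Sal, and Vip was lower (6.83 and 6.09). Without scaling every difference of this comparison moved by -0.15. The part of these markers in the Grin1 difference was not tested. The Grin1 rises in Tat+/Sal and in Tat-/Meth were both measured against the same 5 Tat-/Sal arrays.

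The Tat+/Meth vs Tat-/Meth comparison asks what Tat did in mice given methamphetamine, and again has slide 1 on one side. Grin3a was lower in Tat+/Meth by -0.26 (SE 0.10, adjusted p = 0.0339), with 4 of 5 arrays below all Tat-/Meth arrays, and by -0.11 relative to the median of all genes, but 0.08 without scaling. It was the 1 subunit of 7 past the test, where 54.4% of all genes passed and 38.5% were lower. None of the 7 differed by 2-fold, as 7.22% of all genes did. Its dimmer probe was lower by -0.80 (adjusted p = 0.0481 over all probes, of which 52.8% passed), with 4 of 5 arrays below. The call for the brighter probe ended without Tat-/Meth replicate 1 or 4 or Tat+/Meth replicate 1 or 4. Grin2b differed by -0.26 (adjusted p = 0.114), with 5 of 5 Tat+/Meth arrays below all Tat-/Meth arrays, and passed where only these 2 groups were fitted (adjusted p = 0.0451). Grin2d differed by 0.31 (adjusted p = 0.105) and passed without replicate 5 of Tat-/Meth (0.44, adjusted p = 0.0198) and, where Grin3a did not, without scaling (0.65, adjusted p = 0.00908). Grin1 differed by -0.17 (adjusted p = 0.131, 4 of 5 arrays below), close to the median of all genes at -0.15, and its dimmer probe by 0.18 (adjusted p = 0.239). Grin2c differed by -0.14 and passed without replicate 2 of Tat-/Meth (-0.20, adjusted p = 0.0315), and Grin2a and Grin3b differed by -0.17 and -0.06.

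The Tat+/Meth vs Tat+/Sal comparison asks what methamphetamine did in mice that made Tat. No subunit passed the adjusted test or an unadjusted p of 0.05, and the 7 differences ran from -0.25 for Grin2d to 0.08 for Grin2a. Over all genes, none passed in limma (0%), the smallest adjusted p was 0.143, and 12.2% had an unadjusted p under 0.05. The brighter Grin1 probe differed by -0.18 (95% interval -0.37 to 0.02, adjusted p = 0.458). Its difference of 0.41 in Tat-/Meth vs Tat-/Sal lies outside this interval under this scaling, but cannot be told apart from a slide difference. Without scaling the drug differences of this probe were -0.01 in Tat- and -0.11 in Tat+ mice. The dimmer Grin1 probe differed by -0.13 in Tat- and -0.20 in Tat+ mice (adjusted p = 0.412 and 0.513 over all probes). Within slide 3, where 2 Tat+/Meth arrays met all Tat+/Sal arrays, Grin2d differed by 0.06. In Tat+/Meth vs Tat-/Sal no subunit and no gene passed in limma (0%), with 7.79% of genes at an unadjusted p under 0.05. Grin1 was the 1 subunit of 7 among these, with a difference of 0.24 (unadjusted p = 0.0206, adjusted p = 0.64, 3 of 5 arrays above all controls) and 0.26 among the arrays of slide 2. Its dimmer probe differed by 0.05 (adjusted p = 0.929 over all probes).

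The interaction of Tat and methamphetamine, the drug difference in Tat+ less that in Tat- mice, tests whether the drug differences were unlike in the 2 genotypes. It includes the slide 1 arrays. Grin1 had an interaction of -0.59 (SE 0.13, 95% interval -0.87 to -0.31, adjusted p = 0.0022) and was the 1 subunit of 7 past the test, where 36% of all genes passed, 12.4% positive and 23.6% negative, and 7.44% by more than 2-fold. The call held in all 20 fits that left out 1 array, but not without scaling (-0.10, adjusted p = 0.592, where Grin2c passed instead at 0.38, adjusted p = 0.0213) nor for the mean of both Grin1 probes (-0.33, adjusted p = 0.0637). Relative to the median interaction of all genes, Grin1 lay at -0.45 as reported and at -0.37 after quantile normalization. The dimmer probe had an interaction of -0.07 (adjusted p = 0.773 over all probes, of which 34.8% passed). The interaction of Grin2b was -0.34 (adjusted p = 0.173).

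**Figure D3:**
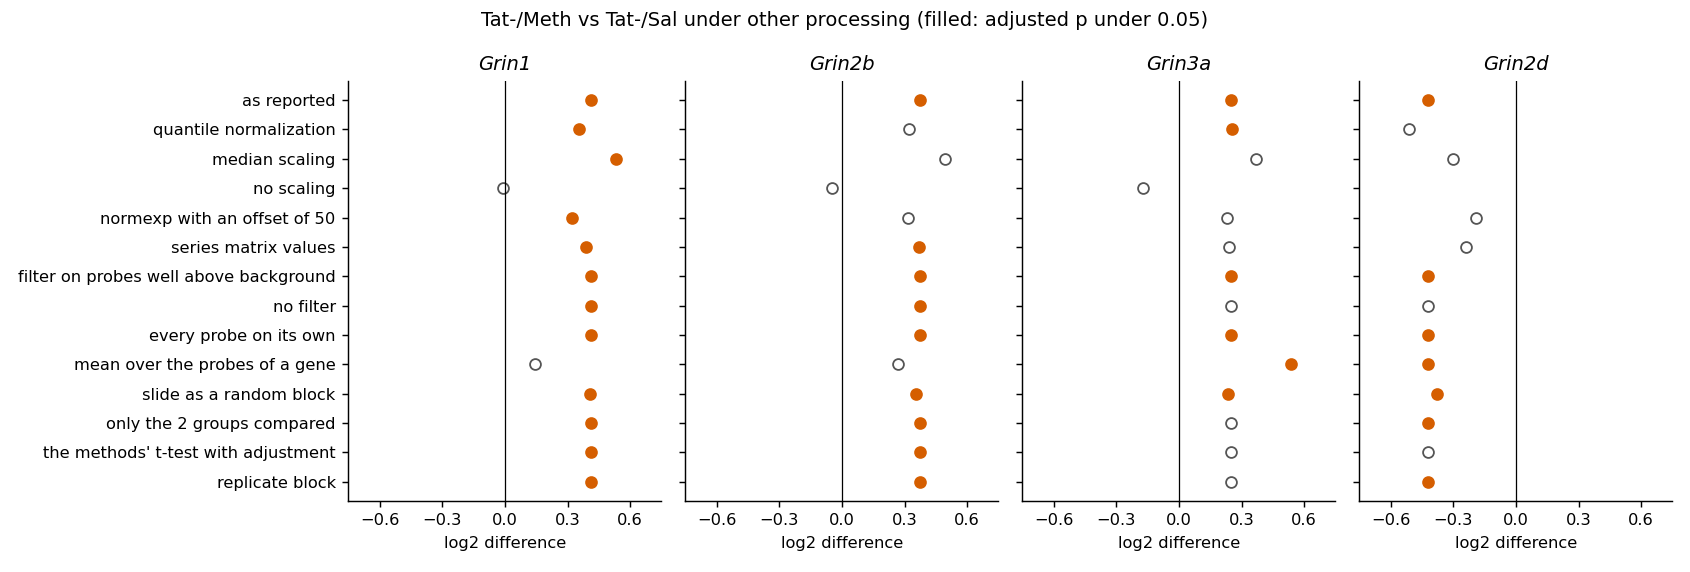
Log2 differences (horizontal axis) of Grin1, Grin2b, Grin3a and Grin2d in Tat-/Meth vs Tat-/Sal as reported and under each of the other processing choices, filled where the adjusted p is under 0.05. Grin1 lies at 0.41 as reported, at 0.14 for the mean of its probes and at -0.01 without scaling, where Grin2b (-0.05) and Grin3a (-0.17) turn sign too.

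Within an array the difference between 2 subunit probes does not depend on a factor common to the array, and it is compared here only across groups. The brighter Grin2b probe less the brighter Grin2a probe averaged 2.21 in Tat-/Sal, with arrays from 1.86 to 2.57, and 2.47 in Tat-/Meth, with arrays from 2.32 to 2.66. With Tat it averaged 2.43 under saline (2.08 to 3.04) and 2.38 under methamphetamine (2.22 to 2.80). All 4 groups overlapped. Grin2b less Grin1 averaged -0.38 in Tat-/Sal, with arrays from -0.56 to -0.28, and -0.42 in Tat-/Meth, with arrays from -0.52 to -0.30. With Tat it averaged -0.71 under saline (-1.07 to -0.23) and -0.51 under methamphetamine (-0.70 to -0.39). By these brighter probes the balance of Grin2b and Grin1 in Tat-/Meth stayed within the Tat-/Sal range, while 4 of the 5 Tat+/Sal arrays lay below it. The dimmer Grin1 probe averaged 9.12 in Tat-/Sal and 8.99 in Tat-/Meth, the opposite order to the brighter one. The balance with that probe was not computed and need not stay within the range. With normexp background correction Grin2b less Grin2a averaged 2.34 in Tat-/Meth, and Grin2b less Grin1 averaged -0.52 under saline without Tat, -0.53 under methamphetamine without Tat and -0.67 under both. In the deposited table Grin2b less Grin1 averaged -0.52 in Tat-/Meth.

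After subtraction of the group means, the subunits that varied together most over the 20 arrays were Grin1 with Grin3a (r = 0.69), Grin2b with Grin2c (r = 0.62), Grin2b with Grin2a (r = 0.59) and Grin2b with Grin1 (r = 0.58). Grin2d ran opposite to Grin2b (r = -0.49), and Grin1 and Grin2a were unrelated (r = 0.04). The brighter and dimmer probes correlated at 0.88 for Grin2a, 0.56 for Grin2b and 0.39 for Grin3a. Grin2b followed the mean of the striatal markers (r = 0.78), as did Grin2c (r = 0.64) and Grin1 (r = 0.60) less closely. With the mean of the pan-neuronal markers, Grin2b correlated at 0.68, Grin1 at 0.60, Grin3b at 0.57 and Grin2d at -0.54. These correlations share arrays, dissections and scaling and are descriptions with no test. Of 15054 genes, the pair most like each subunit in these deviations was Mapk3 (0.94) and Jph3 (0.90) for Grin1, Mib1 (0.95) and Trappc8 (0.95) for Grin2a, Srgap1 (0.90) and Man2a2 (0.89) for Grin2b, and Frmpd1 (0.80) and Hpx (0.79) for Grin2c. It was P2rx6 (0.84) and 5430405H02Rik (0.81) for Grin2d, Slc39a12 (0.88) and Dclk2 (0.81) for Grin3a, and Slc17a5 (0.83) and Pou3f1 (0.79) for Grin3b.

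Genes that work with the receptor were read in 3 lists. In Tat-/Meth vs Tat-/Sal every difference was 0.42 lower without scaling, which turned the sign of 3 of the 6 co-agonist genes that rose, 6 of the 11 scaffold genes and 3 of the 4 signalling genes, and of none that fell. With median scaling every difference was 0.12 higher there, which turned the sign of 1 of the 5 scaffold genes that fell. Without scaling, 2 of 6 co-agonist, 6 of 12 scaffold and 1 of 4 signalling genes that were lower in Tat+/Meth than in Tat-/Meth also turned sign, as did 2 of 4, 2 of 5 and 2 of 2 of the negative interactions. The first covers the making and removal of the co-agonists, with 14 genes listed and 12 tested. In Tat-/Meth vs Tat-/Sal 6 of the 12 rose, 1 fell and 5 did not pass (58.3% past the test against 50.2% of all genes, median difference 0.20 against 0.14). Phgdh, the first enzyme of serine synthesis, averaged 13.10 in Tat-/Sal, 13.86 in Tat-/Meth, 13.26 in Tat+/Sal and 13.14 in Tat+/Meth. Its rise of 0.76 (adjusted p = 8.79e-08) had 5 of 5 arrays above all controls, and its second probe rose by 0.32. Psph rose by 0.54 (adjusted p = 1.43e-05), but its second probe differed by -0.38 (adjusted p = 0.00179 over all probes), the opposite way, and the mean of both by 0.08 (adjusted p = 0.401). Psph is the last enzyme of serine synthesis. Shmt2, the mitochondrial enzyme that interconverts serine and glycine, rose by 0.51 (adjusted p = 8.04e-06). Srr, the racemase that makes D-serine, rose by 0.28 (adjusted p = 0.000822) and Psat1, which acts between Phgdh and Psph, by 0.25 (adjusted p = 0.00746), and both turned sign without scaling. Shmt1, the cytosolic counterpart of Shmt2, differed by -0.80 and passed narrowly (adjusted p = 0.0453). That call was lost in 16 of the 20 fits that left out 1 array (-1.21 to -0.59), with normexp (-0.28), in the deposited table (-0.57), with no filter and in the fit of these 2 groups alone. The transporters Slc6a9, Slc7a10, Slc1a4 and Slc1a5 did not pass (0.04 to 0.15).

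Of the 12 co-agonist genes, 1 was higher and 6 were lower in Tat+/Meth than in Tat-/Meth (median -0.27 against -0.15 for all genes). The genes named were Phgdh (-0.73), Psph (-0.54, with 0.45 and adjusted p = 0.000397 over all probes for its second probe, the opposite way) and Shmt1 (0.91). Shmt1 lost the call in 5 of the 20 fits that left out 1 array, with normexp (0.33), in the deposited table (0.68) and in the fit of these 2 groups alone. The interaction passed for 4 of 12 (33.3% against 36% of all genes), all negative, among them Phgdh at -0.89, Shmt2 at -0.66 and Psph at -0.35 (0.14 without scaling, 0.40 for its second probe). No gene of this list or of the next passed in the other 3 comparisons.

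The second list holds 22 scaffolds and anchoring proteins of the postsynaptic density, all tested. In Tat-/Meth vs Tat-/Sal 11 rose and 5 fell (72.7% against 50.2% of all genes, median 0.20 against 0.14). The membrane-associated guanylate kinases Dlg1, Dlg2 and Dlg3 rose, by 0.59, 0.53 and 0.22, and Dlg4, which encodes PSD-95, differed by 0.37 without passing (adjusted p = 0.124). Shank1, a scaffold beneath them, fell by 1.57 (adjusted p = 1.57e-07), from 8.86 to 7.29, with 5 of 5 arrays below all controls. Its other probes gave -0.56 and 0.33, so they did not all point one way. Shank2 rose by 0.88 (adjusted p = 0.00149) and Shank3 by 0.53 (adjusted p = 0.000875). Homer3, which links Shank proteins to metabotropic receptors, fell by 1.39 (adjusted p = 0.0322), a call lost in 6 of the 20 fits that left out 1 array, with normexp (-1.16, adjusted p = 0.0813) and in the deposited table (-1.25, adjusted p = 0.0561). Homer1 fell by 0.33 and Homer2 rose by 0.38. Of the 22, 5 had a higher and 12 a lower level in Tat+/Meth than in Tat-/Meth (77.3% against 54.4%), led by Homer3 at 2.00, Shank1 at 1.73 and Lin7c at -0.62. In the interaction 3 were positive and 5 negative (36.4% against 36%), led by Shank1 at 1.75, Shank3 at -0.67 and Dlg1 at -0.59. The other Shank1 probes had interactions of 0.54 and -0.13 (adjusted p = 0.00256 and 0.795 over all probes). The second probes of Shank3 and Dlg1 had interactions of -0.14 and -0.16 without passing (adjusted p = 0.655 and 0.617 over all probes).

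The third list holds 23 signalling and trafficking partners, of which 22 were tested. In Tat-/Meth vs Tat-/Sal 4 rose and 4 fell (36.4% against 50.2%, median -0.02 against 0.14), and 14 did not pass. Fyn, a kinase that phosphorylates GluN2B, rose by 0.34, and Camk2d, a calcium-activated kinase, by 0.45 (adjusted p = 0.000402, 0.40 and 0.08 on its other probes). Pacsin1, an endocytic protein that binds GluN3A, fell by 1.47 (adjusted p = 1.28e-09), from 16.91 to 15.44, while its other probe rose by 0.41 (adjusted p = 3.13e-06 over all probes). Camk2a, the kinase subunit that predominates in forebrain neurons, differed by 0.25 without passing. In Tat+/Meth, 3 had a higher and 4 a lower level than in Tat-/Meth (31.8% against 54.4%), among them Pacsin1 at 1.75 and Camk2d at -0.50. The other Pacsin1 probe went the opposite way at -0.43 (adjusted p = 1.70e-06 over all probes), and the other Camk2d probes were at -0.30 and 0.07. In the interaction 2 were positive and 2 negative (18.2% against 36%), among them Pacsin1 at 1.44 and Camk2d at -0.41 (0.08 without scaling). The other Pacsin1 probe had an interaction of -0.36 (adjusted p = 0.000905 over all probes). The other Camk2d probes had interactions of -0.49 and -0.05, neither past the test. No gene of this list passed in the other 3 comparisons.

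**Figure D4:**
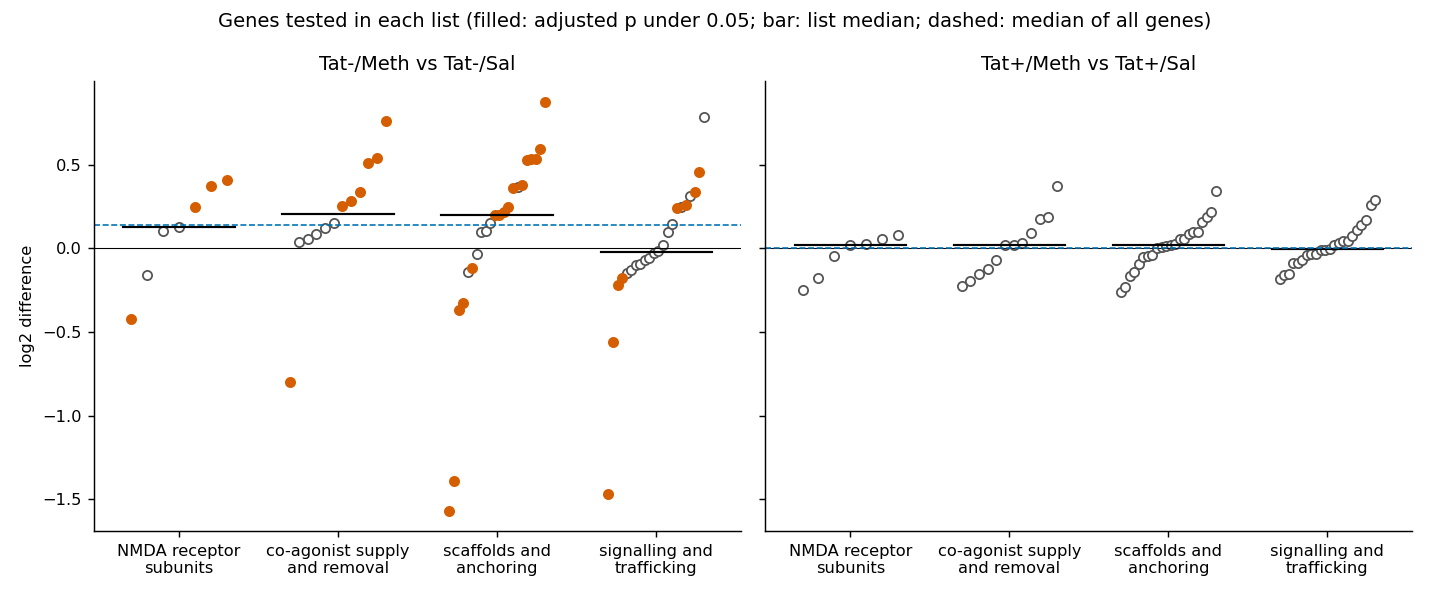
Log2 differences (vertical axis) of the tested genes among the NMDA receptor subunits and the 3 lists for methamphetamine without Tat (Tat-/Meth vs Tat-/Sal) and with it (Tat+/Meth vs Tat+/Sal), 1 point per gene, filled past the test, with list medians as bars and the median of all genes dashed. In the first panel the medians are 0.13 for the subunits, 0.20 for the co-agonist and scaffold lists and -0.02 for the signalling list beside 0.14 for all genes (each 0.42 lower without scaling), and in the second no gene passed.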

How the data were processed

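RNA from the 20 brains was hybridised to one-colour Agilent mouse arrays, labelled with Cy3 per the labels and read with Feature Extraction 10.7.3.1 per the file headers (the study's methods name another dye and scanner). The authors deposited intensity values per spot, of which gProcessedSignal, background-subtracted by that program, was used. Each array holds 62976 spots, of which 3671 are controls. Outlier spots (4278) were left out, log2 values of a probe's repeated spots were averaged, and the arrays were brought to a common 75th percentile. Before scaling, these percentiles differed by up to 0.70. The authors also deposited a table of processed signals for the same arrays, used as an alternative. Its 7831 values under 1 were set to 1 here before log2 was taken.

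Probes were named through RefSeq accessions. The brightest probe stood for a gene, kept where its mean was at least 6 in at least 1 group with at least 3 values per group. All 4 groups were fitted together in limma 3.58.1 (R 4.3.3), without covariates, and p-values were adjusted by Benjamini-Hochberg over 15102 genes or, for every probe, 19799 probes. Python 3.11.15 made the other tables. The code was tested on simulated data. Per the study's methods each group held 5 mice, taken here as 1 array per mouse, and this number limits the precision.

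The subunits and the gene lists were chosen with earlier results of these data known. In each list and comparison up to 3 genes past the test with the largest difference were named, with 2 most similar genes for each subunit. Other list genes (Srr, Psat1, Shmt2 in Tat-/Meth vs Tat-/Sal, the transporters, Dlg2, Dlg3, Dlg4, Homer1, Homer2, Fyn and Camk2a) were named for their roles after their values were seen. Of the signalling list, 1 gene that the rule names is not reported here. The alternatives were other scalings and background corrections, the deposited table, other filters and probe rules, slide as a block or alone, the 2 groups alone, the methods' t-test, a 2-fold limit, a replicate block and leaving out each array.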

Additional observations from a re-analysis of the deposited data

Results flagged for a closer look

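Groups of 5 arrays were checked for a single value far from the others, as the gap to its neighbour over the whole range of the group, with a limit of 0.71. Of 44 probe and group pairs, 3 passed the limit, where chance passes about 1 in 20. Replicate 2 of Tat-/Meth was low for Grin2c, at 13.22 where the others lay between 13.48 and 13.56 (0.746). Replicate 4 of Tat+/Meth was low for Grin2c, at 13.10 where the others lay between 13.33 and 13.39 (0.802). Replicate 5 of Tat-/Meth was high for the dimmer Grin3a probe, at 7.96 where the others lay between 6.37 and 6.71 (0.787).

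The drug difference was unlike in Tat+ and Tat- mice, by the interaction term, for Grin1 at -0.59 (adjusted p = 0.0022) and for 8 list genes. These were Phgdh at -0.89 (adjusted p = 2.3e-06), Shmt2 at -0.66 (adjusted p = 4.15e-05), Psph at -0.35 (adjusted p = 0.0171), Shank1 at 1.75 (adjusted p = 6.44e-06), Shank3 at -0.67 (adjusted p = 0.00343), Dlg1 at -0.59 (adjusted p = 0.0146), Pacsin1 at 1.44 (adjusted p = 4.08e-07) and Camk2d at -0.41 (adjusted p = 0.0168). Second probes of Pacsin1 at -0.36 (adjusted p = 0.000905 over all probes) and Psph at 0.40 (adjusted p = 0.0205) passed in the opposite direction. Other probes of Grin1 (-0.07), Shank3 (-0.14), Dlg1 (-0.16) and Camk2d (-0.49 and -0.05) did not pass. The other Shank1 probes were at 0.54, which passed, and -0.13, which did not. The second Phgdh probe passed at -0.45, in the same direction. In Tat+ mice none of these genes passed the test for the drug. Each interaction includes the Tat-/Meth arrays, all on slide 1, and cannot be told apart from a slide difference.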

How the results depend on the processing

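Of 644 differences of the 7 subunits recomputed under the alternatives other than leaving out an array, 546 kept their direction and their side of the threshold, 38 kept the direction but lost the call, 5 kept it and gained one, and 55 changed sign, some of which also lost or gained a call. The t-tests, the 2-fold limit, the replicate block and the fit of the 2 groups alone keep the same estimate. They could not turn a sign. Other filters and every probe on its own also keep the estimate where the probe stays the same. The count of 546 is therefore no measure of robustness. In what follows the cause of a change was not tested unless the alternative itself shows it (fewer arrays, a mean over probes, a fold limit).

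In Tat-/Meth vs Tat-/Sal 4 subunits passed, against 2 with quantile normalization, the deposited table, no filter, the mean over probes or the adjusted t-test, 1 with median scaling or normexp (offset 50), 0 above 2-fold, 3 without scaling (Grin2c, Grin2d and Grin3b, all lower), and 1 to 4 when 1 array was left out. In Tat+/Meth vs Tat-/Meth 1 passed, against 0 with median scaling, normexp, no filter or 2-fold, 2 in the fit of those 2 groups, and 0 to 2 with 1 array left out. In Tat+/Sal vs Tat-/Sal 1 passed, against 0 with median scaling, no scaling, the deposited table, no filter, the mean over probes, slide as a fixed block, the 2 groups alone, 2-fold or the adjusted t-test, and 0 to 1 with 1 array left out. The interaction had 1 subunit (Grin1), against 0 for the mean over probes or 2-fold, and without scaling it was Grin2c (0.38) and not Grin1. Tat+/Meth vs Tat-/Meth without scaling had Grin2d and not Grin3a.

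Over all genes, 214 passed in Tat+/Sal vs Tat-/Sal, against 488 with quantile normalization, 2 with median scaling, 10 without scaling, 130 with normexp, 89 in the deposited table, 29 without a filter, 0 with slide as a fixed block, 2326 with it as a random block, 10 in the 2 groups alone, 11 by the adjusted t-test, 0 to 547 with 1 array left out, 3 above 2-fold and 553 with the replicate block. The random block estimated a negative correlation within slides (-0.0623). A negative value lowers the standard error of a difference between slides, and these groups lay on different slides. The count of 2326 is therefore not a more careful one. In Tat-/Meth vs Tat-/Sal the count of 7588 fell to 4249 with median scaling and 1034 above 2-fold, in Tat+/Meth vs Tat-/Meth that of 8220 to 1091 above 2-fold, and in the interaction that of 5437 to 2564 and 1124. Where none passed, median scaling gave 1 gene in each comparison, slide as a random block gave 3 in Tat+/Meth vs Tat+/Sal, and slide 2 alone gave 1 in Tat+/Meth vs Tat-/Sal. With the arrays left unscaled the genes past the test were 125 higher and 7134 lower for Tat-/Meth against Tat-/Sal (5281 and 2307 as reported), 5293 and 324 for Tat+/Meth against Tat-/Meth (2409 and 5811), and 5907 and 46 in the interaction (1879 and 3558).

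Signs turned as follows. With the arrays left unscaled, Tat-/Meth less Tat-/Sal was -0.011 for Grin1, -0.048 for Grin2b, -0.17 for Grin3a, -0.30 for Grin2c and -0.32 for Grin2a. Tat+/Meth less Tat-/Meth was then 0.076 for Grin3a, 0.078 for Grin2b, 0.17 for Grin1 and Grin2a, 0.19 for Grin2c and 0.28 for Grin3b, and the interactions were 0.075 for Camk2d, 0.14 for Psph and Grin2b, 0.29 for Grin3a, 0.38 for Grin2c and 0.46 for Grin2a. Tat+/Sal less Tat-/Sal was -0.0041 for Grin2d and -0.063 for Grin2b, and Tat+/Meth less Tat+/Sal was 0.021 for Grin3b. With median scaling, Tat+/Meth less Tat+/Sal was -0.031 for Grin2a, -0.054 for Grin3a, -0.081 for Grin2b and -0.090 for Grin2c, Tat+/Sal less Tat-/Sal was 0.0036 for Grin3a and 0.036 for Grin2c, and the interactions were -0.060 for Grin2d and -0.12 for Grin3b. For the mean over probes, Grin2b was at -0.013 in Tat+/Sal less Tat-/Sal, Grin2a at -0.083 in Tat+/Meth less Tat+/Sal, Grin1 at 0.0017 in Tat+/Meth less Tat-/Meth, Grin3a at 0.0067 in Tat+/Meth less Tat-/Sal and the Psph interaction at 0.024. With normexp the Grin3b interaction was -0.071 and Grin3a in Tat+/Meth less Tat-/Sal 0.013, and in the deposited table the interactions of Grin3b and Grin2d were -0.0039 and -0.0071. On slide 2 alone, as with slide as a fixed block, Tat+/Meth less Tat-/Sal was 0.042 for Grin3a, 0.044 for Grin2c and 0.10 for Grin2a. On slide 3 alone, as with the fixed block, Tat+/Meth less Tat+/Sal was -0.029 for Grin3a, -0.075 for Grin2c, -0.092 for Grin2b, -0.17 for Grin2a and 0.063 for Grin2d. With the fixed block Tat+/Sal less Tat-/Sal was -0.38 for Grin2d, 0.071 for Grin3a, 0.12 for Grin2c and 0.27 for Grin2a, and with the random block the Grin2a interaction was 0.047. None of these was past the test as reported, except Grin1, Grin2b and Grin3a for Tat-/Meth against Tat-/Sal, Grin3a for Tat+/Meth against Tat-/Meth, and the Psph and Camk2d interactions.

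With 1 array left out, signs turned for Grin3b in Tat-/Meth less Tat-/Sal (-0.30 to 0.0041), Tat+/Meth less Tat-/Meth (-0.19 to 0.087), Tat+/Meth less Tat+/Sal (-0.11 to 0.058) and the interaction (-0.048 to 0.26). For Grin2a they turned in Tat+/Meth less Tat+/Sal (-0.13 to 0.29), Tat+/Sal less Tat-/Sal (-0.36 to 0.061), Tat+/Meth less Tat-/Sal (-0.13 to 0.0022) and the interaction (-0.23 to 0.18). They also turned for Grin2b in Tat+/Meth less Tat+/Sal (-0.026 to 0.15) and Tat+/Sal less Tat-/Sal (-0.039 to 0.17), for Grin2c in Tat+/Meth less Tat+/Sal (-0.0081 to 0.071) and Tat+/Meth less Tat-/Sal (-0.075 to 0.034), and for Grin3a in Tat+/Meth less Tat-/Sal (-0.083 to 0.038).

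Groups share replicate numbers 1 to 5, but the numbers do not pair the arrays. The correlations of same-numbered deviations ran from -0.18 to 0.35, with at most 3 of 5 pairs above 0.1, and at most 2 of 5 arrays correlated best with their own number. With the number as a replicate block 3 subunits passed in Tat-/Meth vs Tat-/Sal, where Grin3a no longer passed (adjusted p = 0.0628), and 1 each for Tat+/Meth against Tat-/Meth, Tat+/Sal against Tat-/Sal and the interaction, as without it. Signal over background limits Grin2d and the dimmer Grin3a probe, which were not well above background on every array.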

Other observations

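Across the range of signal, the Tat-/Meth vs Tat-/Sal difference moved with the level of the probe. Its median was -0.21 over 130 genes with a mean log2 level over 17 and 0.18 between 12 and 13, and below 6 it was -0.30 over 488 genes. Grin2d lies in the lowest of these ranges, and its difference was -0.42. Genes in that range were kept only because at least 1 group averaged 6 or more, which for Grin2d was Tat+/Sal. The median of that range can depend on this choice, so it is no background for Grin2d. The part of signal level in the subunit differences was not tested.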
